A study of Canis lupus familiaris with 20 samples.

Results

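Synaptic vesicle and SNARE genes were followed in canine retina through 57 genes with a probe on the array, chosen by gene symbol. The symbols were those of synaptotagmins and their relatives (SYT, SYTL), syntaxins and syntaxin-binding proteins (STX, STXBP), complexins (CPLX), the SNAP and VAMP families, synapsins, SV2 proteins, RIMS proteins, synaptophysin and bassoon. Each gene was represented by the probe with the highest mean signal of its 83 probes in all, and 35483 distinct gene names stand on the array. Of the 57 genes, 48 were well above background on at least 4 of the 5 arrays of a group and 46 could be tested. STX3, VAMP1, SYN1 and BSN were not analysed here.

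Retinas came from 10 dogs of a research colony, 1 array per eye, 20 arrays in 4 groups of 5. In every dog the right eye was injected in the vitreous with 12 µg of CNTF (ciliary neurotrophic factor, which acts on cells through gp130 receptors), the left eye was given PBS, and the retinas were taken 1 week later. Normal dogs were all male, 4 of genotype CNGB3+/m and dog 3 CNGB3+/+, so most controls carry a copy of the mutation. The 5 mutants were CNGB3m/m, without a working beta subunit of the ion channel that cones need for their light response, and dogs 2, 3 and 5 of them were female. Labels give ages of 8.9 weeks for normal dogs and 10.7 to 11.5 weeks for mutants, but the design text gives about 11 months for all. RNA was taken from whole retina, in which fewer cells of a type and less RNA per cell cannot be told apart. None of the 12 rod markers with a probe was below background on every array of any group.

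Vesicle fusion is driven by SNARE proteins: a VAMP on the vesicle zips together with a syntaxin and a SNAP protein on the target membrane. Syntaxin-binding proteins guide the assembly, complexins clamp and support the assembled complex, and synaptotagmins trigger fusion when calcium enters. Photoreceptors and bipolar cells release glutamate at ribbon synapses, which use complexins 3 and 4, whereas amacrine cells form conventional synapses, which use syntaxin 1A.

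The probes that the main results turn on are shown here because each value below is the brightness of such a single sequence, printed 5′ to 3′ as listed in the array files, with capitals marking a stop codon that closes an otherwise open reading frame. STX1A, CPLX3, CPLX4, RIMS2 and VAMP8 were each called in at least 1 genotype, and SYT1 is a member of the fast release machinery that was not called.
STX1A: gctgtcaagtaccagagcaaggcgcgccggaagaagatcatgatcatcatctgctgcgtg
CPLX3: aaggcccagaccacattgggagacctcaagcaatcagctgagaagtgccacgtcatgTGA
CPLX4: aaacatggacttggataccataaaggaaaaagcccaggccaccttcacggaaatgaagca
VAMP8: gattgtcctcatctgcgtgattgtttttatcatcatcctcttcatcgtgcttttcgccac
RIMS2: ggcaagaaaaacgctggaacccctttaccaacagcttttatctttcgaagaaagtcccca
SYT1: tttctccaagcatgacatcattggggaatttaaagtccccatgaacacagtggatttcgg
Per the file headers, positions are those of canFam2, with the strand as listed: chr6:9582497-9582841 (+) for STX1A, chr30:40889567-40889626 (+) for CPLX3, chr1:19930613-19930672 (+) for CPLX4, chr17:42561414-42561473 (-) for VAMP8, chr13:8521718-8521777 (+) for RIMS2 and chr15:24908434-24908493 (+) for SYT1. All were 60 bases long. The STX1A probe spans 345 bases of genome, 285 more than its length. The CPLX3 probe ends in TGA, whose first base is base 58. Each of the 6 had at least 1 reading frame with no earlier stop, and exons were not assigned here.

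After CNTF single members moved in both directions, STX1A, CPLX4 and RIMS2 downward and CPLX3, VAMP8 and SYTL3 upward. SYT1, VAMP2 and SYP, core parts of neuronal vesicles, were not called in the main fit. In normal dogs VAMP2 (lower) and SYP (higher) were called under some alternatives. SNAP25 counts as not called on its brightest probe, which was saturated on 6 arrays, but its dimmer probes were called lower in normal dogs. STX1A and SYTL3 were mostly below background in the eyes where they were low, and neither was called with normexp background correction. In normal dogs 7 of the 46 members were called higher (15.2%) and 14 lower (30.4%), at a limma adjusted p under 0.05. Of all 29336 probes tested, 23.6% were called higher and 27.6% lower in the same comparison. In mutants 3 members were called higher (6.52%) and 10 lower (21.7%), against 11.6% and 17.3% of all probes. The fit used 1 estimate of the spread per probe for both genotypes, so an SE or adjusted p does not measure the spread within 1 genotype. The median log2 change of the members was -0.13 in normal dogs and -0.12 in mutants, and that of all probes was -0.09 in both. Members called the same way in both genotypes were CPLX3, VAMP8 and SYTL3 (higher) and STX1A, CPLX4, SYT7 and STXBP4 (lower); none was called in opposite directions, and 19 were called in neither. Of the members called in both genotypes, SYT7 and SYTL3 passed the background filter through 1 group of normal dogs alone, and the SYT7 level in mutants is not measured. STX1A passed it through the PBS groups alone. The lower calls in normal dogs also hold STX19 and SYT14, which passed through the PBS arrays of normal dogs alone. Each of these members was high where it passed, so its adjusted p is no separate support for the change.

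Slide and CNTF cannot be told apart within a genotype, because no slide held PBS and CNTF arrays of the same genotype. With slide as a fixed block in place of the dog, the calls fell to 0 higher and 1 lower in normal dogs (RIMS2) and 0 higher and 1 lower in mutants (CPLX4). With normexp background correction the calls were CPLX3 and VAMP8 (higher) and CPLX4, RIMS2 and SNAP23 (lower) in normal dogs, and CPLX4 and SNAP47 (lower) in mutants. Without the dog as block they were 4 higher and 8 lower in normal dogs and 3 and 6 in mutants. Leaving out normal dog 5 left 9 lower calls in normal dogs. In mutants, leaving out dog 3 or dog 4 left 6 lower calls, and leaving out dog 1, 2 or 5 left 1 higher call.

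**Figure D1:**
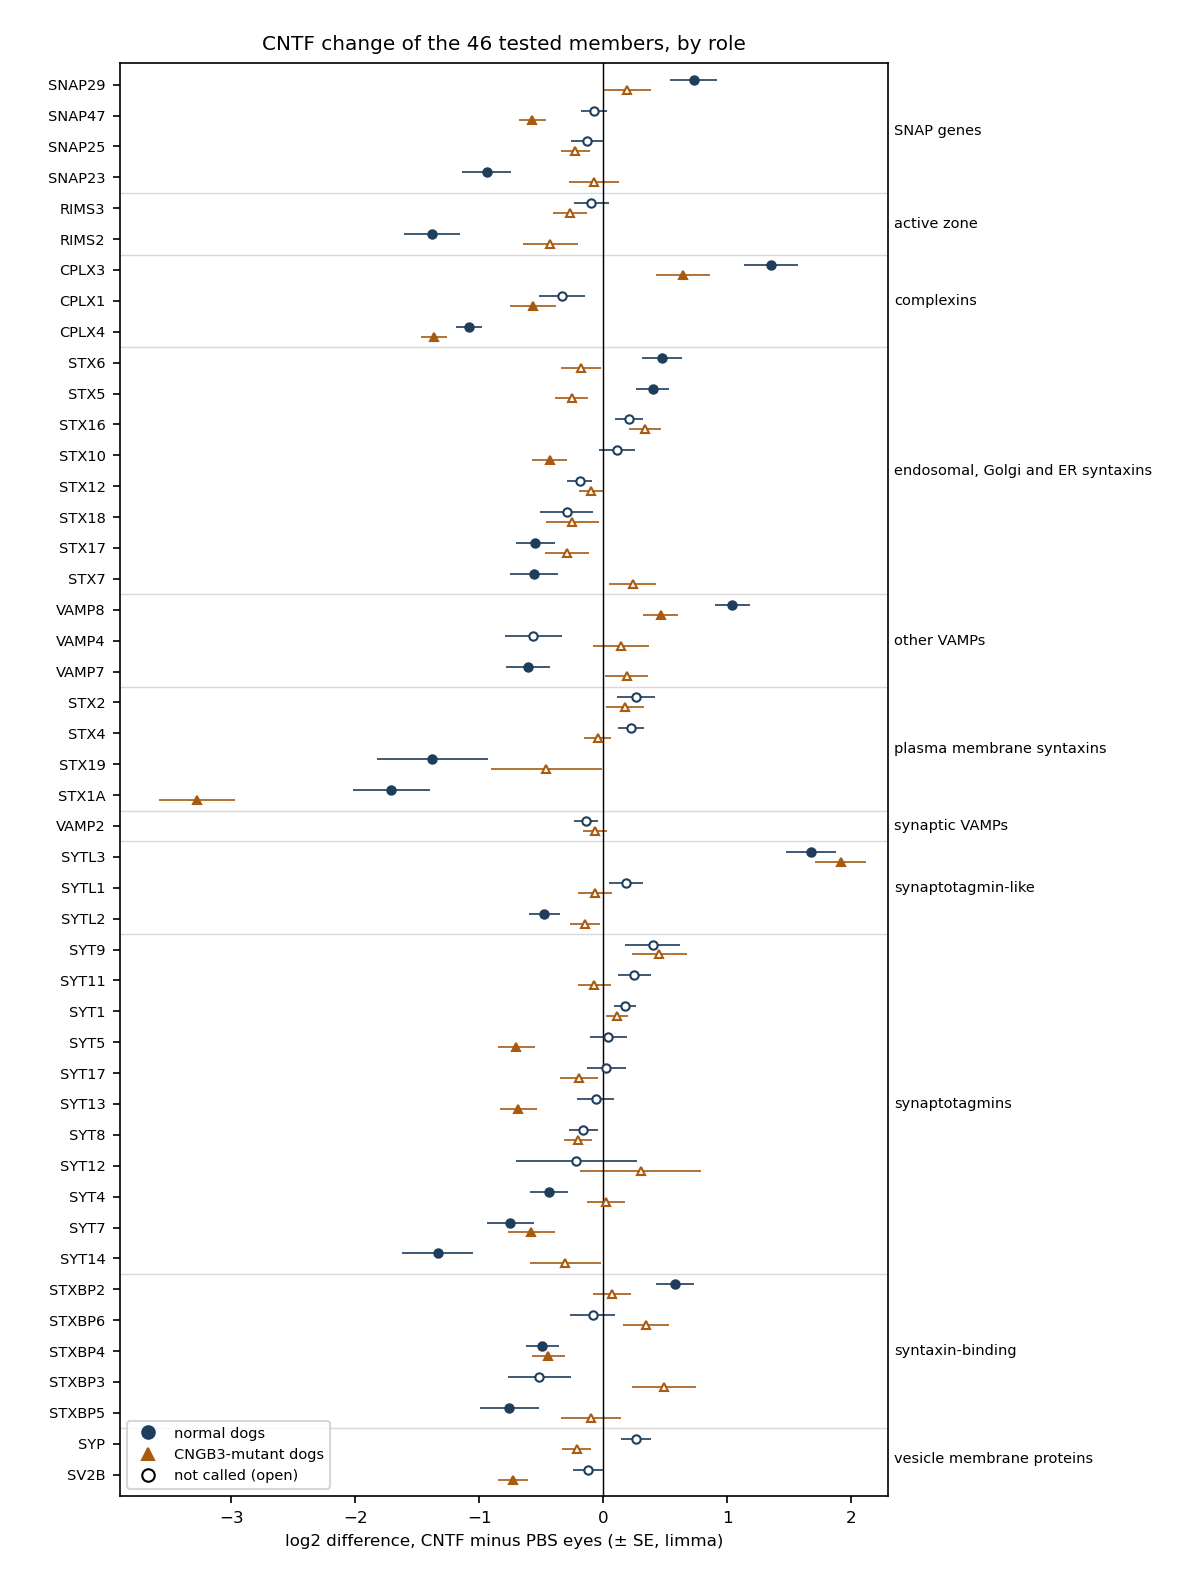
Log2 difference between CNTF and PBS eyes (x axis, ± SE from limma, 5 dogs per genotype) of the 46 tested members, grouped by role on the y axis; circles are normal dogs, triangles CNGB3-mutant dogs, and filled symbols were called. The SE rests on a spread shared by both genotypes. STX1A lies farthest to the left and SYTL3 farthest to the right in both genotypes. With normexp background correction STX1A lost that place in both genotypes, and SYTL3 lost it in normal dogs (0.77, against 1.28 for CPLX3). SYTL3 was then 0.93 in mutants and was not called. CPLX3 and CPLX4 stand on opposite sides of 0. Values of probes below background, such as SYTL3, SYT7 and SYT14, are uncertain in size.

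Among plasma membrane syntaxins, 2 of 4 tested members fell in normal dogs and 1 of 4 in mutants, and none was called higher, in a group too small to read against the 27.6% and 17.3% of all probes called lower. Syntaxin 1A is the neuronal target SNARE. STX1A log2 signal, relative to the 75th percentile of each array as in every value below, in normal dogs 1 to 5 was -1.60, -2.58, -1.62, -1.80 and -2.19 in PBS eyes and -3.42, -3.73, -3.87, -3.54 and -3.78 in CNTF eyes. STX1A in mutants 1 to 5 was -1.43, -1.15, -1.002, -1.60 and -1.68 in PBS eyes and -3.89, -4.20, -6.09, -4.66 and -4.41 in CNTF eyes. All CNTF eyes lay below all PBS eyes in each genotype. Change was -1.71 ± 0.31 (SE, adjusted p = 0.00131) in normal dogs and -3.28 ± 0.31 (SE, adjusted p = 1.82e-05) in mutants, lower in 5 of 5 dogs of each. Only 2 of 5 CNTF arrays of normal dogs and 1 of 5 of mutants were well above background, so the sizes are uncertain. STX1A thus passed the background filter through the PBS groups alone, where it was high, and the adjusted p is no separate support for the fall. With normexp background correction the changes were -0.60 (adjusted p = 0.207) and -0.59 (adjusted p = 0.228), and neither was called, with smaller falls than those of CPLX4 (-1.14 and -1.50) under the same correction.

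STX19 was dim, above background on all PBS arrays of normal dogs, through which alone it passed the filter, and on 5 other arrays. STX19 in normal dogs 1 to 5 was -3.38, -3.00, -2.73, -3.87 and -2.81 in PBS eyes and -5.19, -4.00, -4.47, -4.02 and -5.00 in CNTF eyes, a change of -1.38 ± 0.45 (SE, adjusted p = 0.0245) with 1 of 5 CNTF arrays above background. STX19 in mutants 1 to 5 was -3.18, -6.35, -5.83, -4.34 and -2.81 in PBS eyes and -4.93, -5.69, -4.51, -6.12 and -3.54 in CNTF eyes, a change of -0.46 ± 0.45 (SE, adjusted p = 0.482). PBS and CNTF eyes separated in normal dogs and overlapped in mutants. Without normal dog 1, 3 or 5 the call in normal dogs was lost, with an adjusted p of up to 0.0893. STX2 and STX4, which serve secretion in many cell types, were not called, except STX4 without normal dog 2 (0.32) and STX2 with quantile normalization and in the deposited values, with changes of 0.27 and 0.23 in normal dogs and 0.18 and -0.04 in mutants.

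In the SNAP family, SNAP29 rose and SNAP23 fell in normal dogs, and SNAP47 fell in mutants. SNAP25, the neuronal partner of syntaxin 1A, gave a result that depended on the probe. Its brightest probe in normal dogs 1 to 5 was 7.02, 7.10, 7.02, 7.13 and 7.26 in PBS eyes and 6.91, 7.03, missing, 6.93 and missing in CNTF eyes. This SNAP25 probe in mutants 1 to 5 was 7.25, 7.83, missing, 7.45 and 7.18 in PBS eyes and 6.99, 7.33, 7.04, 7.39 and 7.12 in CNTF eyes, where missing marks a spot the scanner software had flagged as an outlier. Spots were saturated on 6 arrays, 5 of them PBS, and the changes, -0.13 ± 0.13 (SE, adjusted p = 0.447) in normal dogs and -0.22 ± 0.12 (SE, adjusted p = 0.193) in mutants, rest on 3 and 4 complete pairs and were not called. In the deposited values this probe was called in normal dogs.

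The other 3 SNAP25 probes were dimmer, and the second brightest was saturated on 2 arrays, both PBS. In normal dogs 1 to 5 the second SNAP25 probe was 6.14, 6.48, 6.62, 6.72 and 6.78 in PBS eyes and 6.07, 6.11, 6.10, 6.12 and 5.999 in CNTF eyes, a change of -0.47 ± 0.12 (SE, adjusted p = 0.00708). The third SNAP25 probe in normal dogs was 2.96, 3.40, 4.23, 3.88 and 3.83 in PBS eyes and 2.74, 2.89, 2.61, 2.82 and 2.38 in CNTF eyes, a change of -0.97 ± 0.19 (SE, adjusted p = 0.00219). The fourth SNAP25 probe in normal dogs was 2.298, 2.73, 3.61, 3.16 and 3.204 in PBS eyes and 2.08, 2.28, 1.03, 2.11 and 1.82 in CNTF eyes, a change of -1.14 ± 0.27 (SE, adjusted p = 0.00557). PBS eyes of dogs 1 and 2 were the lowest of their group on all of these 3 probes, and every dog was lower in its CNTF eye. In mutants the changes of these SNAP25 probes were -0.27 ± 0.12 (SE, adjusted p = 0.109), -0.37 ± 0.19 (SE, adjusted p = 0.178) and -0.47 ± 0.27 (SE, adjusted p = 0.218), and none was called. The third and the fourth SNAP25 probes overlap on chromosome 24 (15001958-15002017 and 15001965-15002024, canFam2), so they are not separate measurements.

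**Figure D2:**
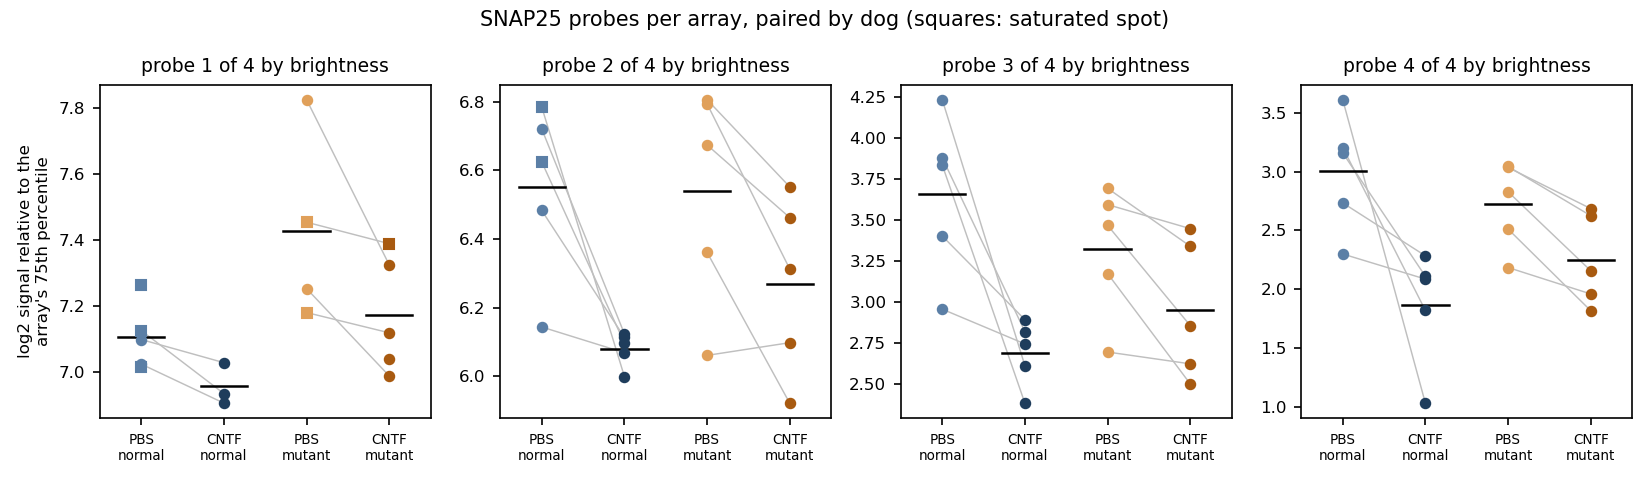
Log2 signal of the 4 SNAP25 probes (y axis, relative to each array's 75th percentile; probes from brightest to dimmest) in the 4 groups of 5 arrays, with lines joining the eyes of a dog, bars at group means and squares for saturated spots. The brightest probe has squares and little spread, and on the 3 dimmer probes the CNTF eye of every normal dog lies below its PBS eye.

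SNAP23, a widely expressed relative of SNAP25, varied among PBS eyes. SNAP23 in normal dogs 1 to 5 was -0.07, 0.44, 1.28, 0.92 and 1.16 in PBS eyes and -0.30, 0.09, -0.16, -0.03 and -0.58 in CNTF eyes. SNAP23 in mutants 1 to 5 was 0.08, -0.59, -0.24, -0.08 and 0.39 in PBS eyes and -0.24, -0.64, -0.05, -0.18 and 0.30 in CNTF eyes. PBS eyes of normal dogs 3, 4 and 5 were higher than all other eyes, and the change was -0.94 ± 0.20 (SE, adjusted p = 0.00317) in normal dogs and -0.07 ± 0.20 (SE, adjusted p = 0.822) in mutants. A second SNAP23 probe gave -1.31 ± 0.29 (SE, adjusted p = 0.0037) and -0.54 ± 0.29 (SE, adjusted p = 0.183).

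SNAP29, which acts in endosome and autophagosome fusion, was called higher in normal dogs. SNAP29 in normal dogs 1 to 5 was -2.47, -1.92, -2.99, -2.53 and -2.64 in PBS eyes and -2.08, -1.94, -2.05, -1.79 and -1.02 in CNTF eyes, a change of 0.73 ± 0.19 (SE, adjusted p = 0.00893) with 4 of 5 dogs higher. SNAP29 in mutants 1 to 5 was -2.09, -2.28, -2.31, -2.06 and -2.71 in PBS eyes and -2.22, -2.10, -1.87, -1.90 and -2.38 in CNTF eyes, a change of 0.20 ± 0.19 (SE, adjusted p = 0.482). Groups overlapped in both genotypes, and the second brightest SNAP29 probe was not called (0.33 ± 0.48 SE, adjusted p = 0.58 in normal dogs).

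SNAP47, another member of the family, was called lower in mutants. SNAP47 in normal dogs 1 to 5 was 2.11, 1.74, 1.48, 1.87 and 1.73 in PBS eyes and 1.75, 1.48, 1.70, 1.72 and 1.90 in CNTF eyes, a change of -0.07 ± 0.11 (SE, adjusted p = 0.579). SNAP47 in mutants 1 to 5 was 2.01, 2.66, 1.97, 2.16 and 1.92 in PBS eyes and 1.61, 1.89, 1.44, 1.51 and 1.41 in CNTF eyes, a change of -0.57 ± 0.11 (SE, adjusted p = 0.00232). Mutant CNTF eyes all lay below mutant PBS eyes. SNAP91, a clathrin adaptor that shares only the name, had outlier spots on 9 arrays and was not tested on its brightest probe. Its other probes were not called, with changes of -0.19 ± 0.09 (SE, adjusted p = 0.0893) and -0.18 ± 0.09 (SE, adjusted p = 0.123) in normal dogs.

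VAMP2, the vesicle SNARE of neurons, stayed within a narrow band. VAMP2 in normal dogs 1 to 5 was 3.69, 3.37, 3.38, 3.49 and 3.45 in PBS eyes and 3.37, 3.29, 3.37, 3.27 and 3.37 in CNTF eyes. VAMP2 in mutants 1 to 5 was 3.39, 3.67, 3.58, 3.49 and 3.46 in PBS eyes and 3.496, 3.60, 3.36, 3.18 and 3.64 in CNTF eyes. Eyes overlapped, and the 95% intervals of the log2 change ran from -0.35 to 0.08 in normal dogs and from -0.28 to 0.15 in mutants. The change in normal dogs, -0.14 ± 0.10 (SE, adjusted p = 0.245), was lower in 5 of 5 dogs and was called with quantile normalization and in the deposited values.

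VAMP8, a vesicle SNARE of endosomes and of secretion in non-neuronal cells, rose. VAMP8 in normal dogs 1 to 5 was 1.96, 1.71, 1.23, 1.61 and 1.65 in PBS eyes and 2.89, 2.32, 2.69, 2.32 and 3.15 in CNTF eyes. VAMP8 in mutants 1 to 5 was 1.80, 2.67, 2.27, 2.53 and 1.67 in PBS eyes and 2.53, 3.02, 2.63, 2.98 and 2.10 in CNTF eyes. CNTF eyes lay above all PBS eyes in normal dogs and overlapped with them in mutants, where each dog was higher in its CNTF eye. The change was 1.04 ± 0.14 (SE, adjusted p = 2.06e-04) in normal dogs, or 2.06-fold, and 0.46 ± 0.14 (SE, adjusted p = 0.0296) in mutants. In mutants the call was lost when any of the 5 mutant dogs was left out, with changes of 0.40 to 0.49 and adjusted p of up to 0.095. Of the 11 tested microglia and macrophage markers, 11 were called higher in normal dogs and 10 in mutants, against 23.6% and 11.6% of all probes. Summed over that list, linear signal relative to the 75th percentile was 5.60 to 7.74 in PBS and 31.6 to 56.3 in CNTF eyes of normal dogs, and 7.91 to 9.97 and 37.2 to 66.3 in mutants. CX3CR1, FCER1G and MRC1 of that list were not above background on any PBS array, and the part of these cells in the VAMP8 result was not tested.

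Of the other VAMPs tested, VAMP7, which acts in late endosomes, was called lower in normal dogs (-0.61 ± 0.18 SE, adjusted p = 0.0153) and not in mutants (0.19 ± 0.18 SE, adjusted p = 0.458). VAMP4, a Golgi vesicle SNARE, was not called, with -0.56 ± 0.23 (SE, adjusted p = 0.0602) and 0.14 ± 0.23 (SE, adjusted p = 0.683). In normal dogs VAMP4 was called lower without normal dog 1 (-0.74), without normal dog 2 (-0.70) and without mutant 1 (-0.56), and VAMP7 was lost without normal dog 5 (-0.57) and with normexp correction (-0.14). Without the 3 dogs whose CNTF arrays had the fewest probes above background, VAMP7 was called higher in mutants (0.58) and VAMP4 lower in normal dogs (-0.70).

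The complexins of ribbon synapses moved in opposite directions: CPLX3 rose and CPLX4 fell. CPLX3 in normal dogs 1 to 5 was 2.75, 2.302, 1.92, 2.25 and 2.17 in PBS eyes and 3.57, 3.36, 3.49, 3.58 and 4.18 in CNTF eyes. CPLX3 in mutants 1 to 5 was 2.68, 3.14, 2.93, 2.59 and 2.37 in PBS eyes and 3.96, 3.40, 2.73, 3.64 and 3.22 in CNTF eyes. Every normal CNTF eye lay above every normal PBS eye, whereas mutant eyes overlapped and mutant 3 was lower in its CNTF eye.

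The CPLX3 change was 1.36 ± 0.22 (SE, adjusted p = 6.29e-04) in normal dogs, 2.56-fold, and 0.65 ± 0.22 (SE, adjusted p = 0.0453) in mutants. Leaving out normal dog 2, 3 or 4, or mutant dog 1, 2, 4 or 5, ended the call for CPLX3 in mutants, with changes of 0.49 to 0.86 and adjusted p of up to 0.149 over all dogs left out in turn. In normal dogs the call held when any single dog was left out, with changes of 1.19 to 1.49.

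CPLX4 in normal dogs 1 to 5 was 4.40, 4.46, 4.23, 4.25 and 4.24 in PBS eyes and 3.39, 2.92, 3.32, 3.15 and 3.36 in CNTF eyes. CPLX4 in mutants 1 to 5 was 4.53, 4.90, 4.59, 4.88 and 4.36 in PBS eyes and 3.21, 3.52, 3.07, 3.61 and 3.04 in CNTF eyes. No CNTF eye reached any PBS eye. The CPLX4 change was -1.09 ± 0.11 (SE, adjusted p = 1.96e-05) in normal dogs, 2.12-fold lower, and -1.36 ± 0.11 (SE, adjusted p = 4.48e-06) in mutants, 2.58-fold lower. In mutants CPLX4 was called under every alternative in which it was fitted, and in normal dogs it was lost only with slide as a fixed block (-1.03, adjusted p = 0.146). CPLX1, the complexin of conventional synapses, was -2.19, -2.37, -2.31, -2.58 and -2.78 in PBS eyes and -3.14, -3.06, -2.45, -3.02 and -2.22 in CNTF eyes in normal dogs 1 to 5, a change of -0.33 ± 0.18 (SE, adjusted p = 0.152). Without normal dog 5 that change was -0.55 (adjusted p = 0.016) and was called. CPLX1 in mutants 1 to 5 was -2.12, -1.56, -2.27, -2.19 and -2.22 in PBS eyes and -2.49, -2.36, -2.93, -2.46 and -2.95 in CNTF eyes, where the eyes did not overlap and the change was -0.57 ± 0.18 (SE, adjusted p = 0.0393). This CPLX1 call was lost without normal dog 4 or without any of the 5 mutants (-0.64 to -0.51, adjusted p up to 0.114), and the value was 0.16 (adjusted p = 0.62) with normexp correction. It was also lost with quantile normalization and in the deposited values. CPLX2 was above background on 7 arrays and was not tested.

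**Figure D3:**
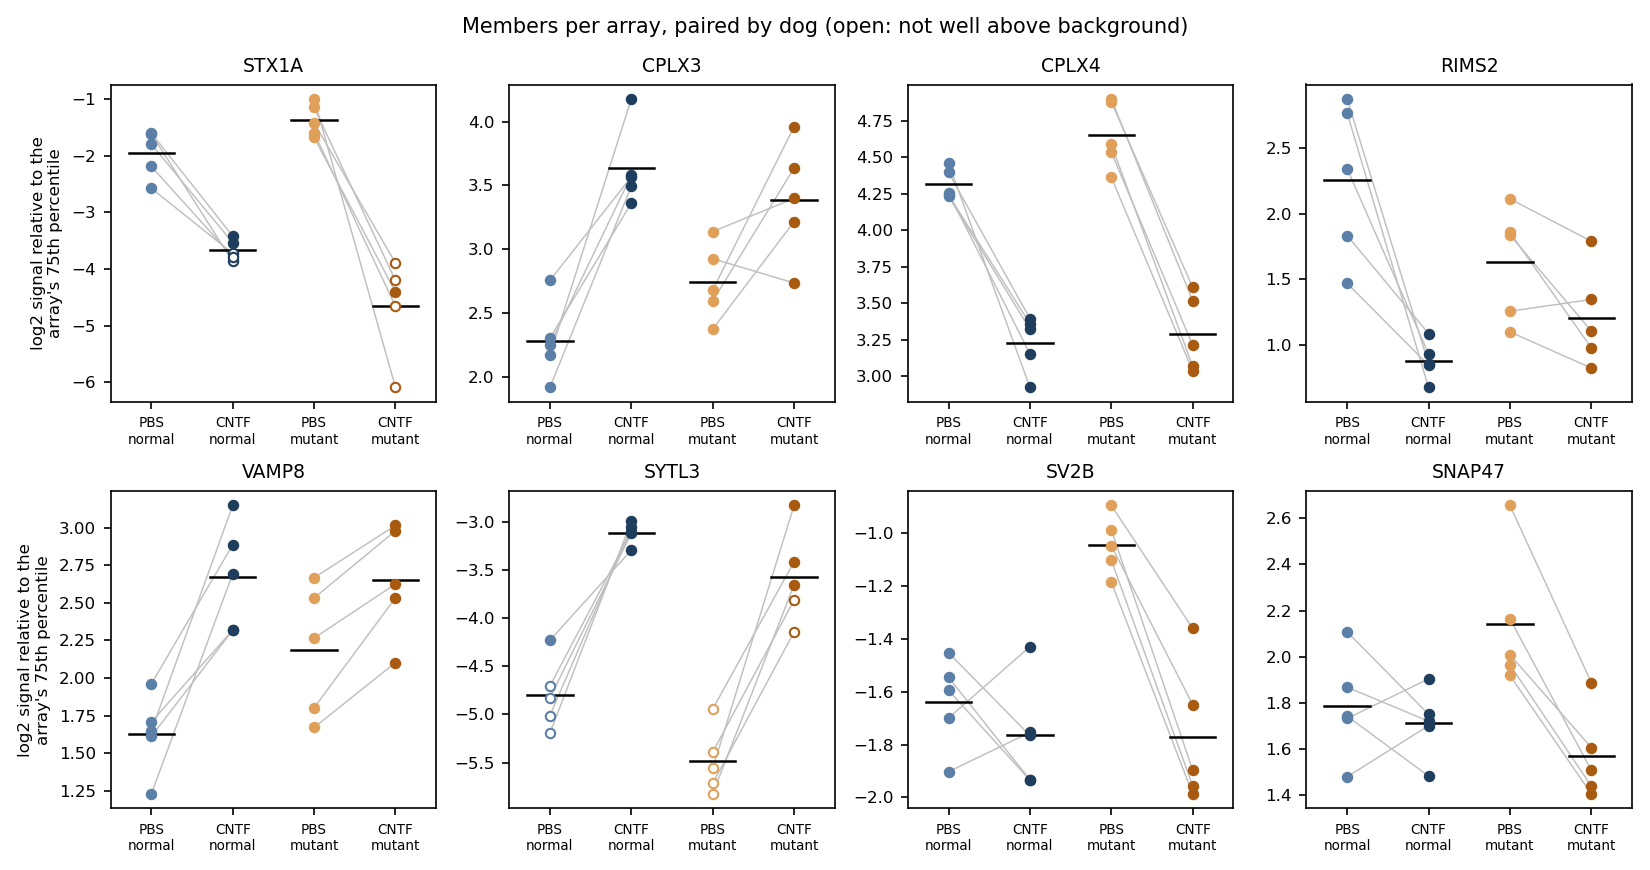
Log2 signal (y axis, relative to each array's 75th percentile) of 8 members on the 20 arrays, 5 per group, with lines joining the eyes of a dog, bars at group means and open symbols for arrays where the probe was not well above background. STX1A and CPLX4 drop in every dog, CPLX3 is higher in the CNTF eye of 9 of 10 dogs, and SV2B and SNAP47 drop in every mutant but not in every normal dog.

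Cell type markers of the retina moved in the same arrays. Of all probes, 23.6% were called higher and 27.6% lower in normal dogs, and 11.6% and 17.3% in mutants. Called lower were 9 of 10 tested cone markers in normal dogs and 8 of 10 in mutants (1 higher in mutants), 6 and 9 of 12 rod markers (1 higher in normal dogs), 5 and 5 of 10 bipolar markers, and 4 and 5 of 7 amacrine markers. Of 9 Müller glia markers 7 were called higher and 1 lower in normal dogs (median 0.72) and 3 and 2 in mutants (median 0.19), and of 8 ganglion cell markers 3 were higher and 2 lower in each. Summed linear signal of the bipolar markers was 26.4 to 34.6 in PBS and 18.9 to 24.1 in CNTF eyes of normal dogs, and 28.2 to 35.4 and 22.0 to 28.4 in mutants. Amacrine markers summed to 28.9 to 37.0 and 20.6 to 31.2 in normal dogs and 28.4 to 49.9 and 20.7 to 22.2 in mutants, and cone markers to 107 to 148 and 35.4 to 53.9 in normal dogs and 111 to 142 and 36.1 to 51.0 in mutants. The part of these shifts in the complexin, STX1A and RIMS2 results was not tested.

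Synaptotagmins gave no higher call in either genotype: 3 of 11 tested fell in normal dogs and 3 of 11 in mutants (27.3% each, against 27.6% and 17.3% of all probes). SYT1, the fast calcium sensor, was not called. SYT1 in normal dogs 1 to 5 was 3.41, 3.23, 3.21, 3.07 and 3.098 in PBS eyes and 3.49, 3.38, 3.32, 3.36 and 3.36 in CNTF eyes. SYT1 in mutants 1 to 5 was 3.40, 3.45, 3.33, 3.57 and 3.56 in PBS eyes and 3.65, 3.69, 3.51, 3.48 and 3.55 in CNTF eyes. Its 95% intervals ran from -0.02 to 0.37 in normal dogs and from -0.08 to 0.31 in mutants, and a second SYT1 probe gave 0.21 ± 0.09 (SE, adjusted p = 0.0782) and 0.20 ± 0.09 (SE, adjusted p = 0.131).

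SYT5 and SYT13 fell in mutants. SYT5, a calcium sensor of secretory granules, in normal dogs 1 to 5 was -2.34, -2.86, -2.89, -2.87 and -2.94 in PBS eyes and -2.83, -2.87, -2.68, -2.98 and -2.32 in CNTF eyes, a change of 0.04 ± 0.15 (SE, adjusted p = 0.826). SYT5 in mutants 1 to 5 was -2.28, -1.65, -2.01, -2.08 and -2.69 in PBS eyes and -3.42, -2.12, -2.80, -2.67 and -3.20 in CNTF eyes, a change of -0.70 ± 0.15 (SE, adjusted p = 0.00528) with 5 of 5 dogs lower. SYT13, which does not bind calcium, in normal dogs 1 to 5 was -1.70, -2.07, -2.32, -2.52 and -2.78 in PBS eyes and -2.06, -2.41, -2.40, -2.57 and -2.25 in CNTF eyes, a change of -0.06 ± 0.15 (SE, adjusted p = 0.758). SYT13 in mutants 1 to 5 was -1.67, -0.999, -1.70, -1.94 and -2.06 in PBS eyes and -2.12, -1.54, -2.89, -2.36 and -2.88 in CNTF eyes, a change of -0.68 ± 0.15 (SE, adjusted p = 0.00564). Eyes of the mutants overlapped for SYT5 and SYT13 alike, though each mutant was lower in its CNTF eye. With normexp correction the changes in mutants were 0.09 for SYT5 and 0.04 for SYT13, of opposite sign and not called. Without the 3 dogs whose CNTF arrays had the fewest probes above background, SYT5 was not called.

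SYT14, a synaptotagmin that does not sense calcium, was called lower in normal dogs, and it passed the background filter through their PBS arrays alone, the group where it was high. SYT14 in normal dogs 1 to 5 was -3.58, -3.47, -3.32, -3.80 and -4.03 in PBS eyes and -4.09, -5.76, -5.41, -4.67 and -4.95 in CNTF eyes, with 5 of 5 PBS and 0 of 5 CNTF arrays above background. The fitted fall in normal dogs had a limma adjusted p of 0.00328. With their CNTF arrays set at the background floor SYT14 was 1.44-fold lower there. That is a rough value, not a strict lower limit, and was not itself tested. With normexp correction the change in normal dogs was -0.02 and was not called. SYT14 in mutants 1 to 5 was -3.899, -4.91, -4.15, -4.78 and -4.15 in PBS eyes and -5.33, -4.95, -4.18, -4.68 and -4.27 in CNTF eyes, with 2 of 5 arrays above background in each group and an adjusted p of 0.462.

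SYT7, a slow calcium sensor, was called lower in both genotypes on very dim spots, and it passed the background filter through the PBS arrays of normal dogs alone. SYT7 in normal dogs 1 to 5 was -4.10, -3.79, -3.96, -3.93 and -5.17 in PBS eyes and -4.77, -4.36, -4.93, -4.56 and -6.06 in CNTF eyes, with 4 of 5 PBS and 0 of 5 CNTF arrays above background and an adjusted p of 0.00816; no fold is given because the bound is under 1. That call was lost with quantile normalization, with normexp correction and in the deposited values. SYT7 in mutants 1 to 5 was -4.42, -3.71, -3.94, -5.91 and -4.27 in PBS eyes and -4.84, -5.39, -4.28, -6.26 and -4.37 in CNTF eyes, with 1 of 5 arrays above background in each group, so its level there is not measured and its call (adjusted p = 0.0415) was lost when normal dog 1, 2, 4 or 5 or mutant dog 1, 2, 3 or 4 was left out. SYT4, which marks vesicles of neuropeptide release, was called lower in normal dogs (-0.44 ± 0.15 SE, adjusted p = 0.0336). That call was lost without normal dog 3, 4 or 5 (-0.43, -0.43 and -0.34), with quantile normalization and in the deposited values, and SYT4 changed sign with normexp correction (0.019). SYT8, SYT9, SYT11, SYT12 and SYT17 were not called in either genotype, with changes between -0.22 and 0.45. SYT9 was called higher in normal dogs with quantile normalization and in the deposited values. It was called higher in mutants without the 3 dogs whose CNTF arrays had the fewest probes above background (0.86).

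Among synaptotagmin-like proteins, which link Rab27 vesicles to the plasma membrane, SYTL3 rose in both genotypes, and it passed the background filter through the CNTF arrays of normal dogs alone. SYTL3 in normal dogs 1 to 5 was -5.19, -4.83, -5.01, -4.23 and -4.70 in PBS eyes and -3.00, -3.12, -3.06, -3.29 and -3.10 in CNTF eyes, with 1 of 5 PBS and 5 of 5 CNTF arrays above background. SYTL3 in mutants 1 to 5 was -5.39, -5.72, -5.83, -4.94 and -5.56 in PBS eyes and -3.81, -4.14, -3.65, -3.42 and -2.83 in CNTF eyes, with 0 of 5 and 3 of 5 above background. CNTF eyes lay above all PBS eyes in both genotypes. The fitted change in normal dogs was 1.68 ± 0.20 (SE, adjusted p = 1.02e-04), uncertain in size. SYTL3 was high in the group that let it pass the filter, so this p-value is no separate support for the rise. In mutants the fitted rise had a limma adjusted p of 4.55e-05. With the PBS arrays of mutants set at the background floor SYTL3 was 1.70-fold higher in their CNTF eyes. That too is a rough value, not a strict lower limit, and was not itself tested. With normexp correction SYTL3 was called in neither genotype, with 0.77 (adjusted p = 0.0763) in normal dogs and 0.93 (adjusted p = 0.0546) in mutants. SYTL2 was called lower in normal dogs (-0.47 ± 0.12 SE, adjusted p = 0.00913), a call lost with normexp correction (-0.36) and without the dog as block. SYTL1 was called in neither genotype.

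Of the vesicle membrane proteins, SV2B fell in mutants and was not called in normal dogs, and the difference of its change was not called either. SV2B, a vesicle glycoprotein, in normal dogs 1 to 5 was -1.45, -1.59, -1.90, -1.55 and -1.70 in PBS eyes and -1.77, -1.93, -1.75, -1.93 and -1.43 in CNTF eyes, a change of -0.12 ± 0.12 (SE, adjusted p = 0.403). SV2B in mutants 1 to 5 was -1.05, -0.90, -0.99, -1.10 and -1.18 in PBS eyes and -1.65, -1.36, -1.90, -1.96 and -1.99 in CNTF eyes, a change of -0.73 ± 0.12 (SE, adjusted p = 0.0011) with no overlap. With normexp correction the change in mutants was -0.15 (adjusted p = 0.58). SYP, synaptophysin, in normal dogs 1 to 5 was -0.87, -1.41, -1.54, -1.35 and -1.29 in PBS eyes and -0.95, -1.18, -1.02, -1.11 and -0.86 in CNTF eyes, a change of 0.27 ± 0.12 (SE, adjusted p = 0.0811). SYP in mutants 1 to 5 was -0.73, -0.44, -0.81, -0.67 and -1.12 in PBS eyes and -1.05, -0.69, -1.13, -1.09 and -0.87 in CNTF eyes, a change of -0.21 ± 0.12 (SE, adjusted p = 0.21). SYP was not called in either genotype, and it was called higher in normal dogs with quantile normalization or without normal dog 1.

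SV2A, the most widespread SV2 protein of neurons, was above background only on the PBS arrays of mutants 2 and 4. SV2A in normal dogs 1 to 5 was -4.93, -4.70, -4.80, -4.96 and -5.13 in PBS eyes and -5.97, -5.43, -6.35, -5.06 and -5.62 in CNTF eyes, all within background. SV2A in mutants 1 to 5 was -4.34, -3.62, -5.13, -3.89 and -4.96 in PBS eyes and -4.92, -5.28, -4.49, -4.83 and -5.87 in CNTF eyes. Synapsins, which tether vesicles to the cytoskeleton, were likewise at background: SYN2 in normal dogs 1 to 5 was -6.68, -6.41, -5.84, -6.66 and -6.79 in PBS eyes and -1.65, -5.37, -6.21, -6.51 and -6.27 in CNTF eyes, and the CNTF eye of dog 1 was the single array above background. SYN2 in mutants 1 to 5 was -4.90, -4.51, -5.93, -6.52 and -5.71 in PBS eyes and -5.09, -5.62, -6.50, -6.74 and -6.08 in CNTF eyes, all within background. SYN3 was above background on 1 array.

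RIMS2, an active zone scaffold that binds Rab3 and calcium channels, was called lower in normal dogs. RIMS2 in normal dogs 1 to 5 was 1.47, 1.83, 2.88, 2.34 and 2.77 in PBS eyes and 0.84, 1.08, 0.85, 0.93 and 0.67 in CNTF eyes. RIMS2 in mutants 1 to 5 was 1.86, 1.10, 1.25, 1.84 and 2.11 in PBS eyes and 0.98, 0.82, 1.34, 1.10 and 1.79 in CNTF eyes. Normal CNTF eyes all lay below normal PBS eyes, mutant eyes overlapped, and mutant 3 was higher in its CNTF eye. Its change was -1.38 ± 0.23 (SE, adjusted p = 7.02e-04) in normal dogs, 2.60-fold lower, and -0.42 ± 0.23 (SE, adjusted p = 0.188) in mutants. A second RIMS2 probe gave -1.22 ± 0.21 (SE, adjusted p = 9.39e-04) and -0.48 ± 0.21 (SE, adjusted p = 0.108).

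RIMS2 was the member whose call in normal dogs held under every alternative in which it was fitted. Its change was -0.63 and -0.75 in normal dogs 1 and 2 and -2.02, -1.41 and -2.09 in dogs 3 to 5, a split that leaving out 1 dog at a time does not address. RIMS1 in normal dogs 1 to 5 was -5.46, -6.14, -4.33, -4.50 and -4.64 in PBS eyes and -5.98, -5.44, -6.32, -6.39 and -6.37 in CNTF eyes, above background only in the PBS eye of dog 3. RIMS1 in mutants 1 to 5 was -6.30, -5.66, -5.80, -6.36 and -5.34 in PBS eyes and -5.04, -5.21, -6.46, -5.81 and -5.86 in CNTF eyes, all within background. RIMS3 was not called in either genotype.

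Syntaxin-binding proteins were mixed, with 1 of 5 higher and 2 of 5 lower in normal dogs and 1 of 5 lower in mutants, against the shares of all probes given above. STXBP2, the Munc18 of leukocytes and epithelia, in normal dogs 1 to 5 was -0.53, -0.75, -1.24, -0.72 and -0.65 in PBS eyes and -0.07, -0.73, 0.01, -0.41 and 0.23 in CNTF eyes, a change of 0.58 ± 0.15 (SE, adjusted p = 0.00981) with 5 of 5 dogs higher. STXBP2 in mutants 1 to 5 was -0.53, 0.35, -0.30, 0.01 and -0.79 in PBS eyes and -0.32, 0.29, -0.32, 0.19 and -0.73 in CNTF eyes, a change of 0.07 ± 0.15 (SE, adjusted p = 0.761). PBS and CNTF eyes overlapped in both genotypes for STXBP2. Its changes per dog ran from 0.02 to 1.25 in normal dogs and from -0.06 to 0.20 in mutants, a difference in spread that the shared SE does not show.

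STXBP5, tomosyn, which inhibits SNARE assembly, in normal dogs 1 to 5 was -1.10, -0.93, -0.21, -0.27 and -0.61 in PBS eyes and -1.27, -0.95, -1.77, -0.89 and -2.03 in CNTF eyes, a change of -0.76 ± 0.24 (SE, adjusted p = 0.0228). STXBP5 in mutants 1 to 5 was -0.89, -1.61, -1.60, -1.45 and -0.63 in PBS eyes and -1.53, -2.05, -1.07, -1.56 and -0.45 in CNTF eyes, a change of -0.10 ± 0.24 (SE, adjusted p = 0.797). Without normal dog 3 or 5 the call was lost (adjusted p up to 0.0954). STXBP4 was called lower in both genotypes, with -0.49 ± 0.13 (SE, adjusted p = 0.0107) and -0.44 ± 0.13 (SE, adjusted p = 0.0274). In mutants the STXBP4 call was lost without dog 1, 3, 4 or 5 (-0.42, -0.46, -0.36 and -0.37) and without the dog as block, and it changed sign with normexp correction (0.11). STXBP3, the widely expressed Munc18, was not called on its brightest probe (-0.51 ± 0.26 SE, adjusted p = 0.112 in normal dogs), whereas its other 2 probes were called lower there, with -0.83 ± 0.24 (SE, adjusted p = 0.0164) and -0.73 ± 0.26 (SE, adjusted p = 0.0355). Without normal dog 1 the brightest STXBP3 probe was called too (-0.78). STXBP6 was not called, except in mutants without dog 4 (0.54).

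Syntaxins of the endosome, Golgi and endoplasmic reticulum gave 2 higher and 2 lower calls of 8 in normal dogs. That was 25% each, near the 23.6% and 27.6% of all probes. In mutants they gave 1 lower call (12.5%) and 0 higher, against 17.3% and 11.6% of all probes. STX5, which works between endoplasmic reticulum and Golgi, in normal dogs 1 to 5 was 0.11, -0.17, -0.71, -0.51 and -0.47 in PBS eyes and 0.07, -0.15, 0.20, -0.10 and 0.23 in CNTF eyes, a change of 0.40 ± 0.14 (SE, adjusted p = 0.0299). STX5 in mutants 1 to 5 was 0.15, 0.73, 0.06, 0.39 and -0.08 in PBS eyes and -0.03, 0.37, -0.17, 0.25 and -0.43 in CNTF eyes, a change of -0.25 ± 0.14 (SE, adjusted p = 0.191). STX5 was higher in 4 of 5 normal CNTF eyes and lower in all mutant CNTF eyes, and it was lost without normal dog 3, 4 or 5 (0.27 to 0.51 over all dogs left out in turn, adjusted p up to 0.12).

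STX6, a syntaxin of the trans-Golgi network, in normal dogs 1 to 5 was -2.16, -2.61, -2.62, -2.33 and -2.59 in PBS eyes and -2.17, -2.27, -1.86, -2.03 and -1.61 in CNTF eyes, a change of 0.48 ± 0.16 (SE, adjusted p = 0.0304). STX6 in mutants 1 to 5 was -1.86, -0.76, -2.20, -1.31 and -1.70 in PBS eyes and -1.77, -1.35, -1.95, -1.80 and -1.85 in CNTF eyes, a change of -0.18 ± 0.16 (SE, adjusted p = 0.444). Without normal dog 3 or 5 the STX6 call was lost (adjusted p up to 0.12). STX7 and STX17 were called lower in normal dogs, with -0.56 ± 0.19 (SE, adjusted p = 0.0311) and -0.55 ± 0.16 (SE, adjusted p = 0.0166), and STX10 in mutants (-0.43 ± 0.14 SE, adjusted p = 0.0418). STX7 was lost without normal dog 3, 4 or 5 (-0.40, -0.58 and -0.41) and on its second probe (-0.55), and STX17 without normal dog 5 (-0.45) and in the deposited values. STX10 was lost without mutant 2, 3, 4 or 5 (-0.41, -0.39, -0.42 and -0.39) or normal dog 4 (-0.43). A second STX10 probe gave -0.52 ± 0.16 (SE, adjusted p = 0.0321). The STX10 probes overlap on chromosome 20 (52079234-52079293 and 52079237-52079296, canFam2), so they are not separate measurements. STX8 had outlier spots on 5 arrays and was not tested on its brightest probe, while its other probes were called higher in normal dogs, with 0.47 ± 0.12 (SE, adjusted p = 0.00711) and 0.52 ± 0.14 (SE, adjusted p = 0.00893). In mutants the STX8 probes gave 0.05 ± 0.12 (SE, adjusted p = 0.805) and -0.0026 ± 0.14 (SE, adjusted p = 0.991) and were not called. STX16 was not called on its brightest probe (0.34 ± 0.13 SE, adjusted p = 0.0788 in mutants) and was called higher there on the second (0.46 ± 0.13 SE, adjusted p = 0.0227). STX12 and STX18 were not called.

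No member was called for a difference of the CNTF change between genotypes. In the limma fit 0 of 46 members were called either way for the mutant minus normal difference, as were 0% of all probes higher and 0% lower, and 6 members lay higher and 12 lower at an unadjusted p under 0.05, as did 13.6% and 21% of all probes. The smallest adjusted p of a member was 0.103. The widest difference was that of STX1A, -1.57 ± 0.44 (SE, adjusted p = 0.103), with 95% interval -2.53 to -0.61, and it is open to the background limits of that probe. SV2B differed by -0.60 ± 0.17 (SE, adjusted p = 0.103) and SNAP47 by -0.50 ± 0.15 (SE, adjusted p = 0.103), both with the lower change in mutants. SNAP23 differed by 0.87 ± 0.28 (SE, adjusted p = 0.103) and RIMS2 by 0.96 ± 0.32 (SE, adjusted p = 0.103), with the lower change in normal dogs. CPLX3 differed by -0.71 ± 0.31 (SE, adjusted p = 0.133) and VAMP8 by -0.58 ± 0.20 (SE, adjusted p = 0.103), with the larger change in normal dogs.

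Between genotypes, no member was called in PBS eyes or in CNTF eyes. In PBS eyes, where 0.0102% of all probes were called higher and 0.017% lower in mutants, limma called 0 of 46 members, with 13 higher and 7 lower at an unadjusted p under 0.05. At that unadjusted threshold 20.4% of all probes were higher and 14.2% lower. The closest was SV2B, at -1.45, -1.59, -1.90, -1.55 and -1.70 in normal and -1.05, -0.90, -0.99, -1.10 and -1.18 in mutant PBS eyes. These SV2B groups did not overlap, and the difference was 0.60 ± 0.12 (SE, adjusted p = 0.0955). Within slide 2, where the only normal array is that of dog 5, it was 0.72. SYP differed by 0.54 ± 0.16 (SE, adjusted p = 0.0955), STX6 by 0.90 ± 0.24 (SE, adjusted p = 0.0955), STX5 by 0.60 ± 0.19 (SE, adjusted p = 0.0955) and SYT5 by 0.64 ± 0.19 (SE, adjusted p = 0.0955), all with the higher mean in mutants. SNAP23 differed by -0.83 ± 0.27 (SE, adjusted p = 0.0955), SYT14 by -0.74 ± 0.22 (SE, adjusted p = 0.0955) and SYTL3 by -0.69 ± 0.21 (SE, adjusted p = 0.0955), with the lower mean in mutants.

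A single dog decided this count. Without normal dog 1, whose PBS eye was the lowest of the normals for SNAP23 and the highest for SV2B, STX5 and SYP, 7 members were called higher in mutant PBS eyes (CPLX3, STX5, STX6, SV2B, SYP, SYT13, SYT5) and 5 lower (SNAP23, STX7, SYTL3, VAMP4, VAMP7). Of all probes, 13.5% were then called higher and 7.7% lower. In that fit SV2B differed by 0.64 ± 0.12 (SE), SYP by 0.64 ± 0.15 and SNAP23 by -1.04 ± 0.23. Sex and label age differ between the genotypes, and with 5 normal against 2 mutant male dogs a fit on males alone has too few arrays to bear on a count that is 0 with all dogs.

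In CNTF eyes limma called 0 of 46 members, against 0% of all probes called higher and 0.00682% lower, with 0 higher and 1 lower at an unadjusted p under 0.05, where 1.87% of all probes were higher and 3.74% lower. That member was STX1A, -0.98 ± 0.34 (SE, adjusted p = 0.753), on arrays mostly below background. SV2B, the widest gap in PBS eyes relative to its error, differed here by -0.01 ± 0.16 (SE, adjusted p = 1), and SYP by 0.06 ± 0.12 (SE, adjusted p = 1).

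**Figure D4:**
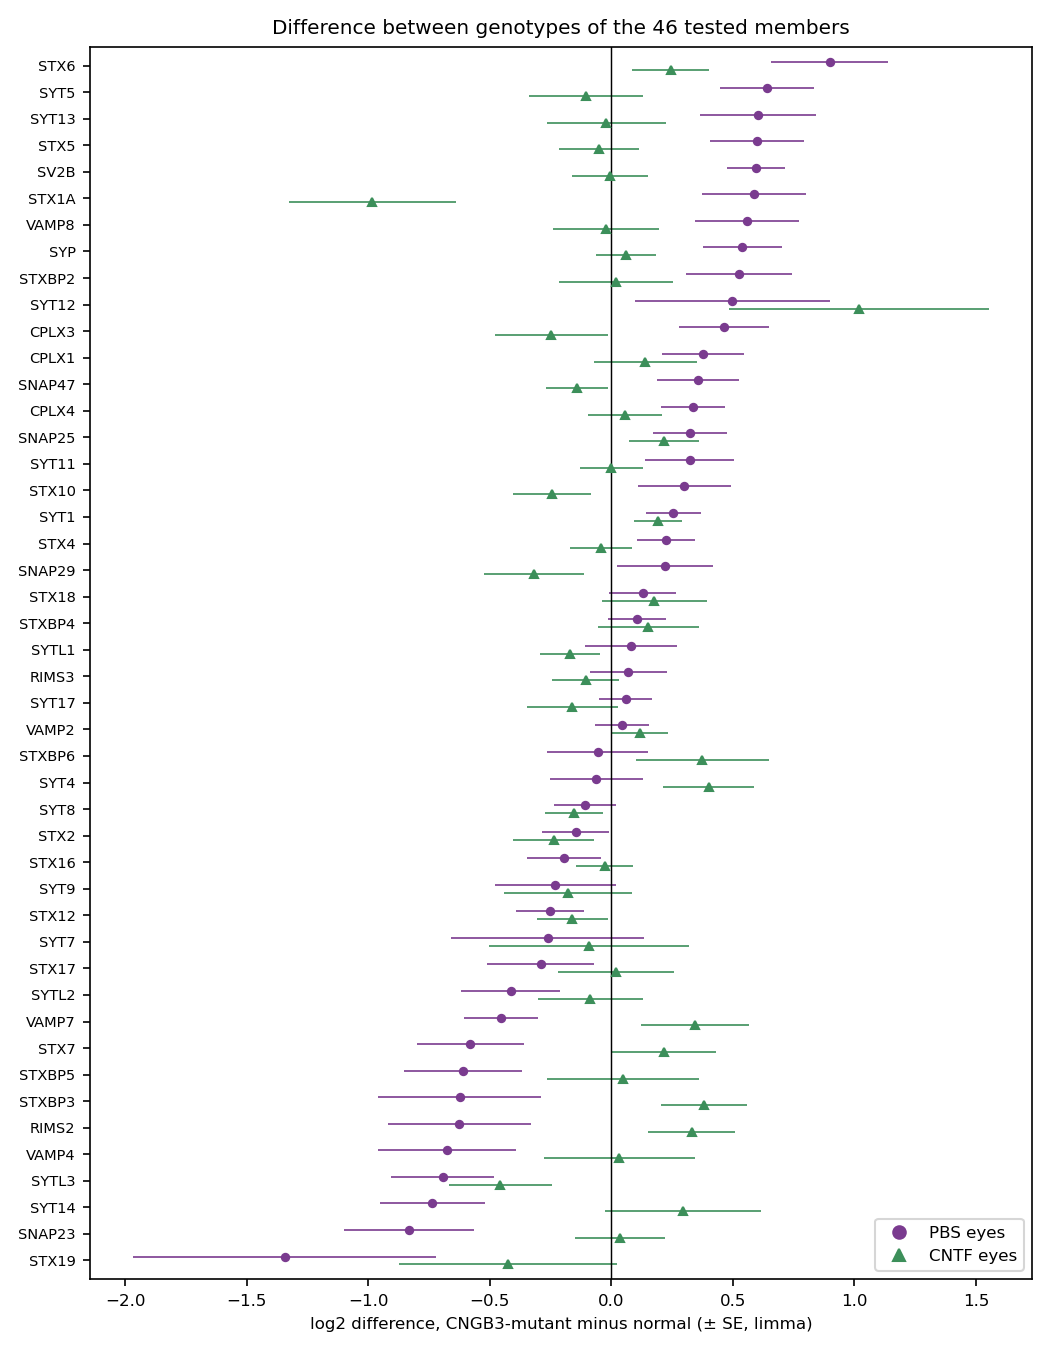
Log2 difference between CNGB3-mutant and normal dogs (x axis, ± SE from limma, 5 dogs per genotype) of the 46 tested members on the y axis, in PBS eyes (circles) and CNTF eyes (triangles). Members are ordered by the PBS value, from STX19 at -1.34 to STX6 at 0.90, and none of these differences was called.

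Other genes of the presynaptic terminal came from a list of 55 that holds no member, of which 40 had a probe and 35 were tested. In normal dogs 5 were called higher and 13 lower (median log2 change -0.11), and in mutants 5 higher and 15 lower (median -0.26). All probes were called at 23.6% higher and 27.6% lower in normal dogs and 11.6% and 17.3% in mutants, with a median of -0.09 in both. SNCG, gamma-synuclein, rose by 3.23 ± 0.15 (log2, SE) in normal dogs and 2.65 ± 0.13 in mutants. SYNGR2, a synaptogyrin of non-neuronal vesicles, rose by 2.21 ± 0.16 and 1.76 ± 0.16. CACNA2D4, a calcium channel subunit of photoreceptor terminals, rose by 0.94 ± 0.09 and 0.50 ± 0.09, whereas CACNB2, the beta subunit there, changed by -1.57 ± 0.16 and -1.02 ± 0.17. UNC119, a photoreceptor lipid-binding protein, changed by -0.52 ± 0.13 and -1.19 ± 0.13, and SYNPR, synaptoporin, by -0.84 ± 0.16 and -0.57 ± 0.16. These 6, given as examples, were called in both genotypes, in the directions given. Their even split between rises and falls is not that of the list, where more genes were called lower than higher in each genotype.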

How the data were processed

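Each array file gives the intensity of every spot, which the authors obtained with Agilent Feature Extraction 9.5.3.1, background-subtracted and not scaled between arrays, per the file headers. The deposited matrix holds log2 values with the same median on every array, 6.18; how they were scaled is not given in the sources used here, and the submitters' processing notes list Partek 6.4. They served as an alternative.

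Control and outlier-flagged spots were left out, spots of 1 probe were averaged, and the 75th percentile of each array was subtracted from log2 of the processed signal. Of 43603 probes, 29545 passed the background test in 4 or more of the 5 arrays of some group and 29336 had at least 3 values per group. The share of probes passing it ranged from 52.2 to 71.9% over the arrays; 20 arrays limit the precision. A probe below background on all arrays of a group has only a rough bound, computed as the bright group's mean over the higher of each dim array's lowest signal above background and the probe's own. Spots not above background can read higher than that lowest signal, so the bound is not a strict limit.

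Tests used limma 3.58.1 in R 4.3.3, two-sided, with Benjamini-Hochberg adjustment over all probes. CNTF changes were fitted on 20 arrays with the dog as block and 1 estimate of the spread per probe, shared by both genotypes. Genotypes were compared on 10 arrays each. The fits were tested on simulated data. Figures used Python 3.11.15 and matplotlib 3.10.9. Both eyes came from each dog, which the labels' replicate numbers pair; deviations of paired arrays correlated at -0.15 to 0.69 over all probes and at 0.17 to 0.73 over the most variable ones. Probe names are those of the files, and all 57 symbols stand in the RefSeq table of UU_Cfam_GSD_1.0.

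Values per array are given for the 8 largest called rises and falls in either CNTF comparison, for members called between genotypes and for a fixed set of core genes; the members and lists were chosen with earlier results of these data known. Alternatives were other normalizations, background corrections, filters, probes, blocks, male dogs and each dog left out.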

Additional observations from a re-analysis of the deposited data

Results flagged for a closer look

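In 95 groups of 4 or 5 arrays of the named members, 6 held an array that stood apart from the rest by Dixon's test, and chance alone gives about 1 in 20. CPLX1 in the PBS eye of mutant 2 was -1.56, with the other 4 between -2.27 and -2.12. CPLX3 in the CNTF eye of normal dog 5 was 4.18, with the others between 3.36 and 3.58. SNAP29 in that same eye was -1.02, with the others between -2.08 and -1.79. SYN2 in the CNTF eye of normal dog 1 was -1.65, with the others between -6.51 and -5.37 and below background. SYT5 in the PBS eye of normal dog 1 was -2.34, with the others between -2.94 and -2.86. SYT7 in the PBS eye of normal dog 5 was -5.17 and below background, with the others between -4.10 and -3.79. No member rose in every dog of 1 genotype and fell in every dog of the other.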

How the results depend on the processing

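Of the 26 calls on members given per array, the sign turned in 8 values. With normexp correction SYT7 was 0.13 in normal dogs and 0.59 in mutants, CPLX1 0.16, SYT13 0.0417 and SYT5 0.0897 in mutants. With slide as a fixed block SYT7 was 1.67 in normal dogs and 0.87 in mutants and SYT13 0.058 in mutants. Of the other calls, SYT4 in normal dogs (0.019) and STXBP4 in mutants (0.11) turned with normexp, and SYTL2 in normal dogs (0.0044) with slide fixed. The cause was not tested. Counts of members called higher and lower in normal dogs (7 and 14) were 2 and 3 with normexp, 4 and 8 with no dog block, 0 and 1 with slide fixed, 3 and 5 at a log2 change of at least 1, and 8 lower among probes above background on all 20 arrays. In mutants (3 and 10) they were 0 and 2 with normexp, 0 and 1 with slide fixed, 1 and 2 at a log2 change of at least 1, 1 higher with no filter, and 6 lower with no dog block. Normexp called 12% of all probes higher and 7.63% lower in normal dogs (61.1% of calls higher, against 46%) and 6.29% and 4.95% in mutants (56% against 40.2%), and it moved the median of all probes from -0.09 to 0.09 and 0.17. With slide fixed 75.3% and 62.8% of calls were higher. Leaving out each dog gave 5 to 8 higher and 9 to 15 lower in normal dogs, 1 to 3 and 6 to 10 in mutants, and 0 to 7 and 0 to 5 for mutant against normal in PBS eyes. In CNTF eyes slide as a fixed block called 1 member higher, SYT12. With the dog as a random replicate block, 0 members were called between genotypes in either eye. The alternative without the 3 dogs with the dimmest CNTF arrays was chosen after seeing the data. Dim probes, STX1A under CNTF among them, limit sizes.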
